A study of Mus musculus with 4 samples.

Results

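The genes described here encode proteins that control the release of paused RNA polymerase II into elongation or end its transcription. Hexim1, Hexim2, Larp7, Cdk9, Ccnt1 and Ccnt2 are on the release side, and Zc3h4, Wdr82, Ppp1r10 and Tox4 on the termination side. They are 10 of the 21779 protein-coding genes placed on the mouse chromosomes. The members were chosen by complex membership and on measured values, since Hexim2, Zc3h4 and Ppp1r10 were known to carry some of the best-ranked peaks in these same lists. How many of the 10 hold a peak is therefore a description, and no test is attached to it. RUVBL2, an AAA+ ATPase of chromatin remodelling and chaperone complexes, was mapped by chromatin immunoprecipitation and sequencing (ChIP-seq). The tissue was hypothalamus from wild-type male C57BL/J mice aged 8 weeks, and the antibody was raised against RUVBL2. There were 2 RUVBL2 ChIP libraries and 2 input libraries, numbered 1 and 2 in each group, with no treatment and no second genotype. Peaks of replicate 2 carry names with the prefix Hyp3, although their sample has Hyp2 in its title. They were taken as replicate 2 because they were deposited under that sample, and every replicate 2 value and shared region rests on this. The labels do not state whether a number is 1 animal or a pool, so agreement between the 2 ChIP libraries may be technical in part.

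After initiation, RNA polymerase II commonly pauses a short way into the gene. The kinase P-TEFb, made of CDK9 and a cyclin T, phosphorylates the polymerase and the pausing factors NELF and DSIF and lets elongation begin. Part of the cell's P-TEFb is kept inactive by the 7SK ribonucleoprotein, in which LARP7 binds the 7SK RNA and HEXIM1 or HEXIM2 inhibits the kinase. A further pair of assemblies acts in the opposite sense to active P-TEFb. The Restrictor complex of ZC3H4 and WDR82 ends early and non-coding transcription, and the PNUTS complex, built on the Ppp1r10 product with TOX4, WDR82 and protein phosphatase 1, removes phosphates from the polymerase and its elongation factors.

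The deposited lists held 3943 peaks in replicate 1 and 6403 in replicate 2, called separately for each library, with no separate values of the input used here. Each peak carries a fold enrichment over the background the authors' peak caller estimated and a −log10 p, both at its summit. The number of reads at the summit (the pileup) was recovered from this pair of values, and its median was 16 in replicate 1 and 22 in replicate 2. Intervals given with a fold are exact Poisson 95% intervals of that pileup and cover counting error only. Ranks are by −log10 p within 1 list, where 1 is the strongest and tied peaks take the best rank of the tie. A shared region is the joined span of peaks of both lists that overlap by at least 1 bp, and there were 3111. Of 29 marker genes of hypothalamic cell types, 2 held a shared region (Rbfox3 of neurons and Col23a1 of ependyma and tanycytes). The gene body and 3 kb beyond each end were counted, and by this rule 17.3% of all protein-coding genes held one. Peaks are no measure of expression, so they do not check the tissue label, and which cells of the tissue carried a peak cannot be told from bulk chromatin.

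Promoter sequence was available for 9 of the 10 genes from RefSeq (GRCm38.p6), as windows from 250 bases before to 50 bases after a transcription start. Hexim2 had no entry. The stretches that follow are the 250 bases before the start of 4 genes, shown because 2 lay wholly under peaks of both libraries and 2 lay almost or wholly outside them. They read 5′ to 3′ on the gene's strand. Capitals mark letters searched for on both strands: CCAAT (bound by NF-Y), GGGCGG (the GC box), CCGGAAG (ETS factors), TGACGTCA (the cAMP response element), ACTACAA (ZNF143) and the NRF1 palindrome with 1 base free. In Ccnt2, 1 CCAAT and 1 GC box share a base. The 4 genes printed are also the only ones whose windows, of 10, hold CCAAT. The stretches of Ccnt1 and Tox4, which likewise lay under no peak, are not printed. The Ccnt2 stretch (chr1:127773914-127774163, + strand) and the Cdk9 stretch (chr2:32712785-32713034, − strand) lay under peaks of both libraries along all 250 bases.
Ccnt2: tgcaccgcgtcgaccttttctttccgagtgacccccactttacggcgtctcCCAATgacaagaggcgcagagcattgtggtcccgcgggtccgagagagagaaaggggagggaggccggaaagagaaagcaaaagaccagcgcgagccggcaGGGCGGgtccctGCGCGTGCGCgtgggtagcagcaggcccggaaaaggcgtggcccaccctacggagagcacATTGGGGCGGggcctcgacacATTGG
Cdk9: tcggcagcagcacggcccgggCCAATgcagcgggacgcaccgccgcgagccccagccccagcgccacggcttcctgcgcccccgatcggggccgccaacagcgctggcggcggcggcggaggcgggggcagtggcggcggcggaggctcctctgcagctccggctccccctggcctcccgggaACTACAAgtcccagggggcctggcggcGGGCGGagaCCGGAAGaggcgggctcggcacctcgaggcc
The Larp7 stretch (chr3:127553350-127553599, − strand) had 26 of its 250 bases under a peak of replicate 2 and none under one of replicate 1. The Hexim1 stretch (chr11:103116075-103116324, + strand) lay under no peak in either list, although both lists held a peak farther upstream.
Larp7: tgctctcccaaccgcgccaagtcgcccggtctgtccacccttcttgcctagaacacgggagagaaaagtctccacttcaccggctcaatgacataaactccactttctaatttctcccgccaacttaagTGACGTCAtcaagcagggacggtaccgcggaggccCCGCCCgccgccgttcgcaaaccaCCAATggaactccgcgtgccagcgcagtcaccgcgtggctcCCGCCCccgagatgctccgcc
Hexim1: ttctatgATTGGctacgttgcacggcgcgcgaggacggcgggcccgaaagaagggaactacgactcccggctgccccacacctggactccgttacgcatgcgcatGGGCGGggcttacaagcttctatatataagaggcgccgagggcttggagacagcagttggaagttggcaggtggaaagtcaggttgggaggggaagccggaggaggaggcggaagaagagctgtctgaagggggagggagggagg

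RUVBL2 peaks of both libraries met at 8 of the 10 genes. A shared region lay in the gene body or within 3 kb of a gene end for Hexim1, Hexim2, Cdk9, Ccnt1, Ccnt2, Zc3h4, Wdr82 and Ppp1r10, which held 9 such regions, with 2 in Ppp1r10. By the same rule 17.3% of all protein-coding genes held one, and 18.4% of the 11833 genes whose length lies between those of the shortest and the longest member (3401 and 38114 bp). Replicate 1 alone had a peak at 8 of the 10 genes, against 21.0% of all protein-coding genes, and replicate 2 at all 10, against 32.8%. Larp7 and Tox4 had a peak in replicate 2 only. Counting only regions made of the top 1000 peaks of each list left 5 of the 10 genes (Hexim2, Cdk9, Ccnt2, Zc3h4 and Ppp1r10), against 3.12% of all genes. Because the peaks helped to choose the genes, these shares are set side by side without a test.

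**Figure D1:**
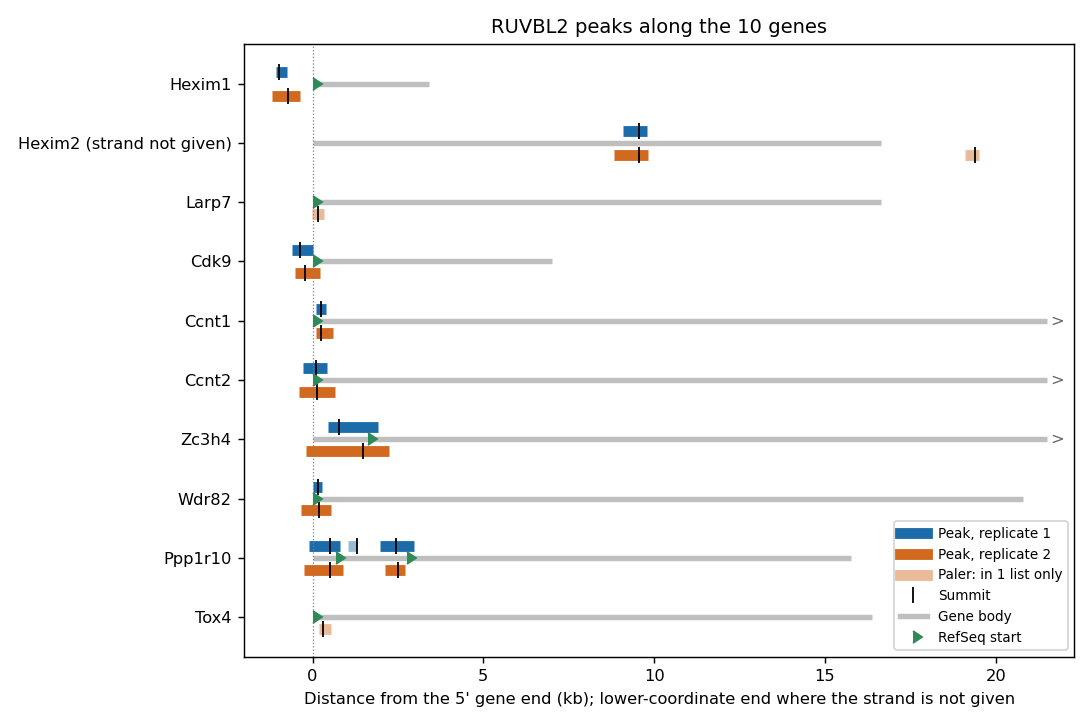
Position of each RUVBL2 peak (bars, by replicate) and its summit (black ticks) along the 10 genes, as distance in kb from the 5′ gene end, or from the end with the lower coordinate for Hexim2, whose strand is not given. Grey lines are gene bodies, continued beyond the axis where marked, green arrows are RefSeq starts, and paler bars are peaks of 1 list only. Most peaks sit at the gene start, whereas the shared Hexim2 region lies in the gene interior, the replicate 2 peak that is not shared lies beyond that gene, and the Hexim1 peaks lie upstream of theirs.

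Among the inhibitors of P-TEFb, Hexim2 carried the best-ranked peaks of the release genes in both lists. Its region (GRCm38 chromosome 11, 103132091 to 103133084) ranked 4 of 3943 in replicate 1, with a fold enrichment of 18.19 (13.9 to 23.4) on a pileup of 58 reads. In replicate 2 it ranked 8 of 6403, with a fold of 18.8 (15.05 to 23.2) on 84 reads. The summits lay 19 bp apart, and the replicate 1 peak of 706 bp lay wholly inside the replicate 2 peak of 994 bp. The region sits inside the gene, 7321 bp from the nearer gene end, a distance reached or passed by 6.46% of all shared regions. No Hexim2 start was in the promoter table, so whether an internal start lies there was not tested. Replicate 2 listed a further peak 2457 bp beyond the higher-coordinate end of Hexim2, near the bottom of its list (rank 6060, fold 3.23, 1.89 to 5.19).

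Hexim1, the paralogue that lies 3534 bp from Hexim2, had a much lower-ranked region. It ranked 2352 in replicate 1, with a fold of 4.48 (2.63 to 7.20) on 15 reads, and 1020 in replicate 2, with a fold of 6.82 (4.61 to 9.75) on 28 reads. Both summits lay upstream of the Hexim1 start, by 980 bp in replicate 1 and 705 bp in replicate 2, and they were 275 bp apart, where 84.3% of shared regions had summits at this distance or closer. The nearest other protein-coding gene end is that of Acbd4, 2930 bp from the region. The peaks ended before the promoter stretch printed above. That stretch holds an inverted CCAAT 243 bases before the start, 737 bp from the summit of replicate 1 and 462 bp from that of replicate 2.

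Larp7, whose product holds the 7SK RNA, had no peak in replicate 1, where the nearest lay 283897 bp away. In replicate 2 a peak of 361 bp (chromosome 3, 127553015 to 127553375) had its summit 158 bp downstream of the start, with a fold of 4.24 (2.70 to 6.39) on 21 reads and rank 3921. The neighbouring gene Zgrf1 has its RefSeq start 140 bp upstream on the other strand, outside the peak. The Larp7 window holds TGACGTCA at 121 bases before the start and again from the third transcribed base.

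The genes of the kinase itself all held shared regions at or near their starts. Cdk9, the catalytic subunit, had a region at chromosome 2, 32712560 to 32713393, ranking 374 in replicate 1 (fold 7.09, 4.56 to 10.6, on 22 reads) and 391 in replicate 2 (fold 8.46, 5.93 to 11.7, on 34 reads). Its summits lay upstream of the Cdk9 start by 373 bp in replicate 1 and by 232 bp in replicate 2. The first of these is nearer the start of the lncRNA gene Gm33457 on the opposite strand, at 153 bp. The replicate 2 summit lay 3 bp from the CCAAT at the distal end of the stretch printed above. Under the same region lie the hairpins of Mir2861 and Mir3960. The mature miR-2861 (chr2:32712819-32712837, − strand) is shown because it is part of the printed Cdk9 stretch, where it overlaps the GC box. Capitals mark its seed, bases 2 to 8.
mmu-miR-2861: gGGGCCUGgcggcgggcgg

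Ccnt2, which encodes cyclin T2, ranked well above Ccnt1 in both lists. The Ccnt2 region (chromosome 1, 127773759 to 127774829) ranked 43 in replicate 1, with a fold of 10.6 (7.46 to 14.7) on 34 reads, and 431 in replicate 2, with a fold of 7.20 (5.15 to 9.81) on 38 reads. Its summits lay 93 and 140 bp downstream of the start, 47 bp apart. The lncRNA gene 2900009J06Rik starts 110 bp upstream of Ccnt2 on the other strand. At Ccnt1, for cyclin T1, the region (chromosome 15, 98567139 to 98567635) ranked 789 in replicate 1, with a fold of 6.16 (3.83 to 9.45) on 19 reads. In replicate 2 the Ccnt1 peak ranked 3404, with a fold of 4.14 (2.74 to 6.04) on 25 reads over a background of 5.28 reads, which 13.1% of that list reached. The 2 Ccnt1 summits were only 19 bp apart, 259 and 240 bp downstream of the start. They were nearer the start of the overlapping lncRNA gene 9330020H09Rik on the other strand, at 153 and 172 bp, and the Ccnt1 promoter stretch itself lay under no peak.

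**Figure D2:**
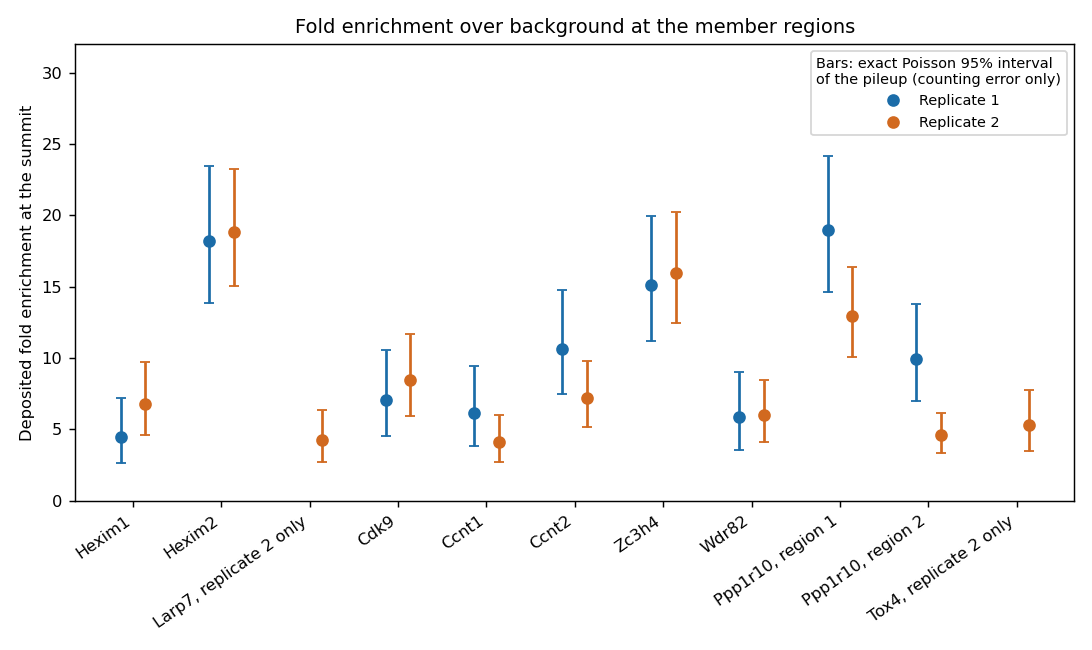
Deposited fold enrichment at the summit of the best peak of each list in the 9 shared regions, and at the replicate 2 peaks of Larp7 and Tox4. Bars are exact Poisson 95% intervals of the pileup with the background held fixed. Hexim2, Zc3h4 and the first Ppp1r10 region lie above 12 in both lists, and the other regions lie at 10.6 or lower.

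On the termination side, Zc3h4, the zinc finger subunit of Restrictor, held a region that stood out by breadth. It spans 2409 bp (chromosome 7, 16399404 to 16401812) and is number 5 by width of the 3111 shared regions. The replicate 1 peak of 1461 bp ranked 10, with a fold of 15.1 (11.2 to 19.9) on 48 reads, and was number 19 of its list by width. The replicate 2 peak of 2409 bp ranked 17, with a fold of 15.98 (12.4 to 20.2) on 67 reads, and was number 4 by width. The summits were 700 bp apart, a distance reached by 30 of the 3111 regions. In replicate 1 the summit lay 837 bp upstream of the RefSeq start used here and in replicate 2 137 bp upstream, both inside the annotated gene, whose outermost end is still farther upstream. The promoter window lay wholly under both peaks. It holds the YY1 letters GCCATNTT, 81 bases before the start, 56 bp from the replicate 2 summit and 756 bp from that of replicate 1. Of this window 30 bases are printed (chr7:16401104-16401133, + strand), with those letters in capitals.
Zc3h4: aggggacggccGCCATGTTgggccgggccg

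Wdr82, the WD-repeat subunit common to Restrictor and the PNUTS complex, had a mid-ranked region (chromosome 9, 106170602 to 106171475). It ranked 1090 in replicate 1, with a fold of 5.84 (3.59 to 9.06) on 18 reads, and 1195 in replicate 2, with a fold of 5.98 (4.097 to 8.45) on 30 reads. The summits were 37 bp apart, 154 and 191 bp downstream of the start. The replicate 1 peak of 271 bp covered 31.0% of the 874 bp replicate 2 peak. The Wdr82 window, like that of Larp7, holds TGACGTCA, here 98 bases before the start, between GC boxes. The 30 bases around it (chr9:106170820-106170849, + strand), with TGACGTCA in capitals, lay under the replicate 2 peak only.
Wdr82: ggccgccccgcTGACGTCAtcgtcccgccc

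Ppp1r10, which encodes the scaffold PNUTS, was the only one of the 10 genes with 2 shared regions. Of the 3778 protein-coding genes with a shared region by this rule, 155 held 2 or more. The first region (chromosome 17, 35916248 to 35917411) held the strongest peak of replicate 1 (rank 1), with a fold of 18.96 (14.6 to 24.2) on 63 reads. In replicate 2 it ranked 31, with a fold of 12.9 (10.04 to 16.4) on 66 reads. The summits were 4 bp apart, 182 and 186 bp upstream of the first RefSeq start and inside the annotated gene. The letters TATAAA lie 242 bases before this start, 55 bp from the replicate 1 summit and 51 bp from that of replicate 2. This region also overlaps the start of Mrps18b, a mitochondrial ribosomal protein gene on the opposite strand, which lies 756 bp upstream of that Ppp1r10 start.

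The second Ppp1r10 region (chromosome 17, 35918500 to 35919485) lies at the second RefSeq start of the gene, 2076 bp downstream of the first. It ranked 52 in replicate 1, with a fold of 9.97 (6.99 to 13.8) on 34 reads over a background of 2.51 reads. In replicate 2 it ranked 1037, with a fold of 4.59 (3.37 to 6.13) on 44 reads over a background of 8.80 reads, which only 0.203% of that list reached. Ranked by fold instead, the replicate 2 peak fell to 3566. The part of the local background in this was not tested. The summits lay 326 and 267 bp upstream of the second start, 59 bp apart. A YY1 match in the inverted form lay 98 bp from the replicate 1 summit and 39 bp from that of replicate 2. Between the regions, replicate 1 alone listed a further peak near the bottom of its list (rank 3577, fold 3.83, 2.12 to 6.48, on 12 reads). From each window 30 bases are printed with the named letters in capitals, the first at chr17:35916946-35916975 and the second at chr17:35919033-35919062, both on the + strand.
Ppp1r10 first start: tggccgggTATAAAagactccgcccgagcg
Ppp1r10 second start: ttctccataacAAAATGGCgtccctctcct

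Tox4, an HMG-box partner of PNUTS, had no peak in replicate 1 within 3 kb, the nearest lying 9036 bp away. In replicate 2 a peak of 349 bp (chromosome 14, 52279343 to 52279691) ranked 2205, with a fold of 5.30 (3.47 to 7.78) on 24 reads. Its summit lay 319 bp downstream of the Tox4 start and 70 bp upstream of the start of Rab2b, a Rab GTPase gene on the opposite strand whose start overlaps Tox4. Given to the nearest protein-coding gene end only, the Tox4 peak went to Rab2b. At the other side of the 3 kb limit, both lists held peaks 4380 and 4339 bp beyond Ccnt1, with folds of 6.03 and 8.10, which were not counted.

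**Figure D3:**
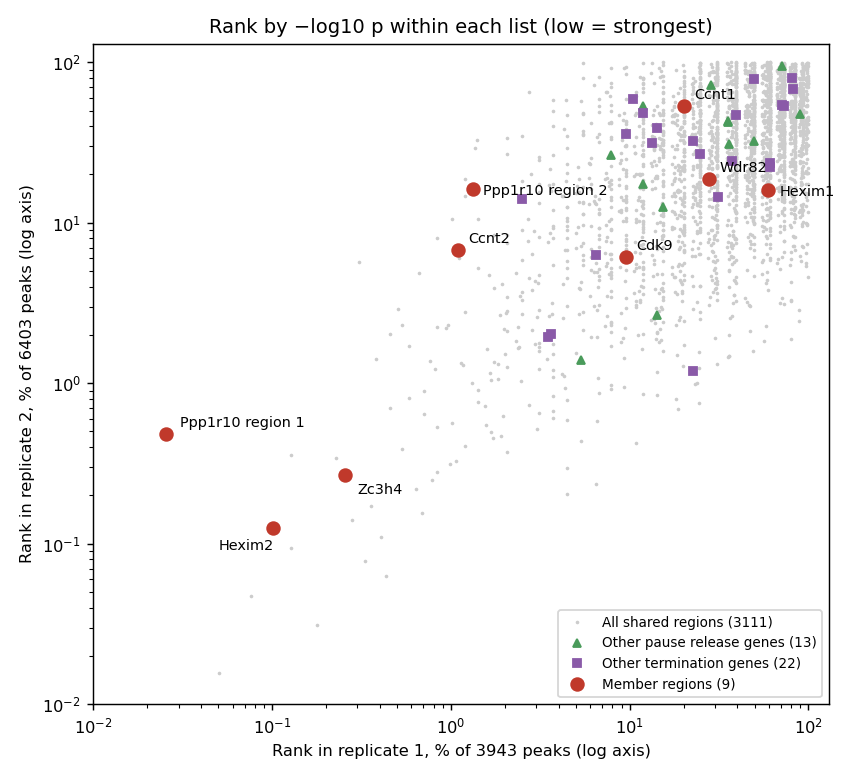
Rank of each shared region by −log10 p in replicate 1 (x axis) and replicate 2 (y axis), as a percentage of the list on log axes, for all 3111 shared regions, the 9 member regions and the other pause release and termination genes. Hexim2, Zc3h4 and the first Ppp1r10 region lie within the top 0.484% of both lists, and Ccnt1 and Hexim1 lie beyond 50% in 1 list.

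The 9 regions thus differed widely in rank, and none lay beyond 59.7% of either list. The worse of a region's ranks in the 2 lists ran from 0.125% of the list for Hexim2 to 59.7% for Hexim1. Its median was 9.49%, beside 54.6% over all 3111 regions. Hexim2, Zc3h4 and Ppp1r10 were chosen partly on rank, so the lower median follows in part from the choice of genes. As percentages of replicate 1 and replicate 2, Cdk9 stood at 9.49% and 6.11% and Zc3h4 at 0.254% and 0.266%. The values lay farther apart for the second Ppp1r10 region (1.32% and 16.2%), Ccnt1 (20.0% and 53.2%) and Hexim1 (59.7% and 15.9%), but ranks from lists of different length show no change. The median distance between summits was 47 bp, from 4 bp at Ppp1r10 to 700 bp at Zc3h4, beside 93 bp over all regions. The median width of a region was 986 bp, beside 715 bp. These medians too come from genes chosen partly on their peaks and are a description only. In pairs of ranks, the shared regions nearest to Hexim2 at a protein-coding gene end were those of Seh1l, a nuclear pore gene (ranks 5 and 6), Kmt2e (7 and 2) and Srcap (11 and 9), a measure resting on 2 libraries.

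The promoter windows of these genes were mostly rich in G and C. Over the 10 windows of 9 genes, G and C made up a median of 64.7% of bases, from 42.7% at the second Ppp1r10 start to 78.3% at Cdk9. The median was 65.3% over the 2365 windows of protein-coding genes touched by peaks of both lists and 55.2% over the other 18898. Of the 10 windows, 3 lay wholly inside a peak of each list (Ccnt2, Zc3h4 and the first Ppp1r10 start), against 2.43% of all windows of protein-coding genes. Peaks of both lists touched 6, against 11.1%. The peaks helped to choose the genes, so these shares are a description. GC boxes were in all 10 windows, beside 46.2% of all protein-coding windows and 73.5% of touched ones. CCAAT was in 4 (Hexim1, Larp7, Cdk9 and Ccnt2), beside 38.2% and 30.1%. The YY1 letters were in 3 (Zc3h4, Wdr82 and the second Ppp1r10 start), beside 6.37% and 21.0%. TGACGTCA was in 2, beside 2.23% and 4.61%, and TATAAA in 1, beside 12.6% and 3.93%. CCGGAAG was in 2, beside 11.6% and 26.0%, and the NRF1 palindrome in 1, beside 6.38% and 14.7%. ACTACAA was in 1, beside 3.6% and 3.34%, and the E-box CACGTG in 0, beside 7.84% and 10.8%. A start on the opposite strand lay within 1 kb upstream of 4 windows (Larp7, Cdk9, Ccnt2 and the first Ppp1r10 start), against 12.3% of all protein-coding windows and 27.8% of touched ones. A match of letters describes the sequence only.

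Other genes of the same pathways also held shared regions. Of 30 further genes of pausing and early elongation, 13 (43.3%) held one, 3 had a peak in replicate 1 only, 7 in replicate 2 only and 7 in neither. This list and the termination list below were drawn up with earlier results of these data known, so their shares are a description. Folds of these further genes are given with replicate 1 before replicate 2. Aff4, the scaffold of the super elongation complex, had folds of 5.93 (3.88 to 8.71) and 9.81 (7.16 to 13.1). Supt5, the large DSIF subunit, had 6.47 (4.07 to 9.83) and 7.68 (5.16 to 11.05) in the better of its 2 shared regions, whose nearest gene end is that of Timm50. Nelfa had 6.78 (4.32 to 10.2) and 5.67 (3.95 to 7.89). Among the complexes, which were picked out after the values were seen, NELF genes held a region in 2 of 4 cases (Nelfa and Nelfb) and PAF complex genes in 1 of 5 (Cdc73), beside 17.3% of all protein-coding genes. Genes of the CDK-activating kinase (Cdk7, Ccnh and Mnat1) held a shared region in 0 of 3 cases. A replicate 2 peak was in all 3, beside 32.8% of all protein-coding genes. Given to the nearest protein-coding gene end only, the Mnat1 peak went to another gene. By that rule 26.8% of all protein-coding genes held a replicate 2 peak. Mepce, which caps the 7SK RNA, held a region with folds of 6.78 (4.32 to 10.2) and 4.14 (2.74 to 6.04).

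Of 38 further genes of termination, 3′ end cleavage and the Integrator complex, 22 (57.9%) held a shared region, 1 had a peak in replicate 1 only, 10 in replicate 2 only and 5 in neither. Scaf8, which binds the polymerase's C-terminal domain, led with ranks 137 and 124 and folds of 8.83 (5.97 to 12.6) and 9.88 (7.34 to 13.03). Pcf11, a termination and cleavage factor, had 8.44 (5.71 to 12.1) and 11.35 (8.25 to 15.25), and Rprd2 7.58 (5.01 to 11.1) and 7.84 (5.56 to 10.8). Ppp1cc, a catalytic subunit of the phosphatase that PNUTS anchors, had 9.25 (6.295 to 13.15) and 6.86 (4.67 to 9.76) in a region 3397 bp inside the gene. These complexes too were picked out after the values were seen. All 3 catalytic subunit genes held a shared region, as did 4 of 5 genes of C-terminal domain binding proteins (Rprd1b, Rprd2, Scaf4 and Scaf8). The Rprd1b region lay equally near the end of another gene. Genes of cleavage and polyadenylation held a shared region in 5 of 11 cases (Pcf11, Cpsf1, Cpsf2, Wdr33 and Cstf1). Integrator genes did so in 5 of 14 cases (Ints5, Ints6, Ints8, Ints11 and Ints14), with a replicate 2 peak in 11. These stand beside the same 17.3% and 32.8% of all genes. Counted by nearest protein-coding gene end only, the Ints5 region went to Ganab, the Ints11 region to Acap3 and the Cstf1 region to Aurka. The replicate 2 peaks of Ints5, Ints7, Ints9, Ints11 and Ints13 also went to other genes. By that rule 19 of the 38 termination genes held a shared region, with Ints6, Ints8 and Ints14 left of Integrator. The shares of all protein-coding genes were then 13.7% for a shared region and 26.8% for a replicate 2 peak. Taking the best region of each gene, the worse of the 2 ranks had a median of 42.2% over the 13 release genes and 38.0% over the 22 termination genes. The same median was 8.11% over the 8 genes described above, which were chosen partly on these ranks.

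**Figure D4:**
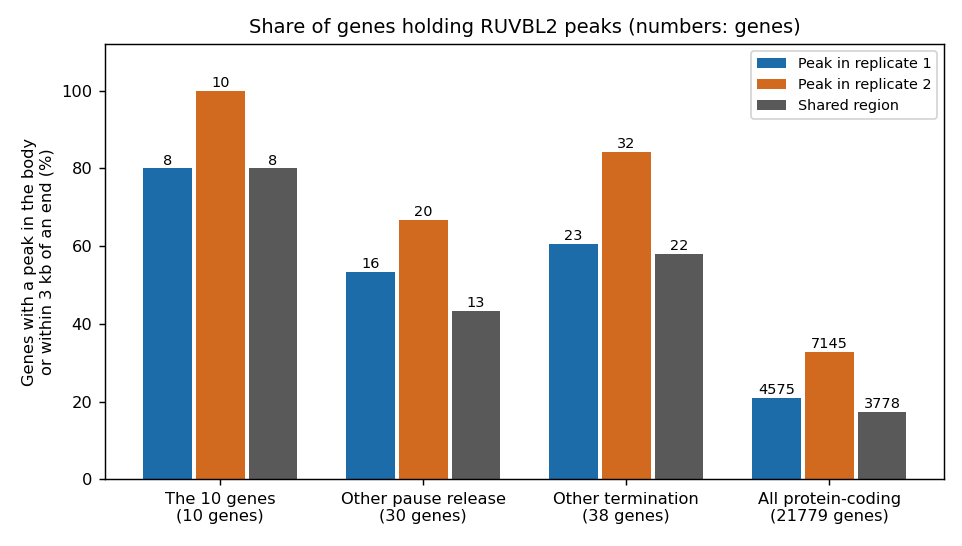
Percentage of genes with a peak of replicate 1, a peak of replicate 2 or a shared region in the body or within 3 kb of an end, for the 10 genes, the other pause release and termination genes and all protein-coding genes. Numbers on the bars are genes. A shared region was held by 8 of the 10 genes, which were chosen partly on these peaks. The other lists, also drawn up with earlier results of these data known, held one in 43.3% and 57.9% of genes. Over all genes it was 17.3%.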

How the data were processed

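RUVBL2 ChIP-seq peaks of 2 libraries were analysed. Per the submitters' processing notes the tools included MACS2 2.1.0, Bowtie2 2.3.4.1, Trimmomatic 0.33, bcl2fastq 2.17 and the annotation tool ChIPseeker, with GRCm38 as the build. The peak caller's settings and its control were not given in the sources used here. Each deposited list, 1 per library, holds the authors' fold ratio, −log10 p and −log10 q at the summit of a peak. Its deposited score is 10 times −log10 q without the decimals and was not used further. Summit pileups and backgrounds were solved from fold (1 added to pileup and background) and −log10 p, matching 100% of peaks within a relative tolerance of 0.0001. The step was tested on simulated data. Amplified reads carry no molecular identifiers, so intervals cover counting error only, and total reads per library are not known.

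Genes came from the RefSeq table of GRCm38.p6, and rows that start below 3 Mb were dropped, except on Y. Any overlap with a gene body widened by 3 kb counted. Strand and starts came from the promoter table. The text names all members, the 4 genes per further list with the best worst-case rank, 3 regions nearest in rank to the best member region, and protein-coding genes with an end within 3 kb of a member region. A gene that this rule names is not reported here. Mepce, the complexes and the neighbouring non-coding genes were added after their values were seen. The members and lists were chosen with earlier results of these data known. In the termination list 38 of 39 symbols matched. No statistical test was planned or run. The computing used Python 3.11.15, pandas 2.3.3 and scipy 1.17.1.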

Additional observations from a re-analysis of the deposited data

How the results depend on the processing

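Of 41 alternative values, 37 stayed within 1.5 times the main count, or, for a median, within 1 SD over the regions. The number of the 10 genes with a shared region was 8, against 17.3% of all protein-coding genes. It was 5 with the top 1000 peaks of each list, against 3.12%. With these peaks the further lists held 3 pause release genes (13 in the main count) and 5 termination genes (22). These are 10.0% and 13.2% of those lists, beside the same 3.12%. With 1 library left out in turn, any peak of the other list was counted in place of a shared region. The 10 genes then gave 8 to 10, the pause release genes 16 to 20 and the termination genes 23 to 32. By that count 21.0% of all protein-coding genes held a replicate 1 peak and 32.8% a replicate 2 peak. The pause release count passed 1.5 times its main value only with replicate 2 alone (20). With summits required within 250 bp, Hexim1 and Zc3h4 dropped out and 6 of the 10 genes held a region, against 14.4% of all genes. With a −log10 q of at least 5, Hexim1 dropped out (7, against 8.58% of all genes). A 10 kb window added Tox4 (9, against 20.5%). With the region midpoint required near a gene end, Hexim2 dropped out (7, against 16.0%). Ranked by fold, the median worst-case rank of the 9 regions was 10.9% instead of 9.49%. Summit pileups of 12 to 84 reads at these genes limit the precision of each fold. No paired analysis was possible because the input libraries that share numbers with the ChIP libraries gave no values here.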

Other observations

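Across promoter windows of all protein-coding genes, several searched letters were found at other rates in the 2365 windows touched by peaks of both lists than in the other 18898, given as a description without a test. CCGGAAG, the core recognised by ETS factors, was in 26.0% and 9.76%. The NRF1 palindrome was in 14.7% and 5.34%, the YY1 letters in 21.0% and 4.55%, and the E-box CACGTG in 10.8% and 7.47%. TATAAA went the other way, with 3.93% and 13.7%, as did CCAAT, with 30.1% and 39.2%. ACTACAA, the ZNF143 letters, was in 3.34% and 3.63%. Touched windows were also richer in CpG, with a median of 28 per window beside 10. The part of base composition in these rates was not tested. Within the 10 genes, the window of the first Ppp1r10 start is among the 93 touched windows that hold TATAAA. There the letters lie 242 bases before the start, under the strongest replicate 1 peak.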
